A study of Mus musculus with 14 samples.

Results

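Erg and Fli1 are close relatives in the ETS family of transcription factors, and 8622 regions carried a ChIP-seq peak of both in Hoxb8-FL cells. A member was any Erg peak on the autosomes or chromosome X that overlapped a Fli1 peak by 1 bp or more, so the members were chosen by the called positions of Erg and Fli1, and the presence of both is not a finding. The members were 95.7% of the 9014 Erg peaks and 39.1% of the 22034 Fli1 peaks, out of 279955 peaks in the lists of 13 factors, which merge into 121980 regions. The peaks left over were 13412 Fli1 peaks without Erg and 392 Erg peaks without Fli1.

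Hoxb8-FL is a mouse line of multipotent haematopoietic progenitors, labelled as resembling lymphoid-primed multipotent progenitors (LMPPs). The cells carry a conditional Hoxb8 protein and were grown untreated, with estradiol and FLT3 in the medium, and every library comes from this same line. Erg and Fli1 were precipitated with an antibody each, as were 11 other factors (Lmo2, Tal1, Lyl1, Runx1, Spi1, Cebpa, Cebpb, Gfi1, Gfi1b, Meis1 and Gata2). A rabbit IgG library is part of the series too, but its peaks were not analysed here. With 1 library per factor there was no replicate check and no test, so differences are descriptions of these libraries. A range in parentheses after a share is its exact (Clopper-Pearson) 95% binomial interval, which covers counting error only. A peak is a position 400 bp wide with no height or read count, and the depth of the libraries is unknown.

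ETS factors bind DNA that holds the core GGAA, and Erg and Fli1 have very similar DNA-binding domains that favour the longer form with CCGGAAG or CAGGAAG. Erg is required to maintain blood stem cells, and Fli1 for megakaryocytes and blood vessels. In blood progenitors both are known to bind beside Tal1, Lyl1, Lmo2, Gata2 and Runx1, a group of factors called the heptad when counted with them. Spi1 (PU.1) is a more distant ETS relative that drives myeloid and lymphoid development and favours GAGGAA.

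The sequences below show where these letters lie under the members. They are promoters from RefSeq on GRCm38.p6, the build of the peaks. The genes come from lists of blood and control genes, of which 14 named genes had a promoter under a shared peak, and the first 9 in the order of the lists are shown. Each is the stretch of 80 bases before the start of transcription that lies closest to the Erg midpoint, 5′ to 3′ on the strand of the gene, and capitals mark a match to either form on either strand. CAGGAAG reads CTTCCTG where it lies on the other strand. In 5 of the 9 the stretch held at least 1 match. Over all 14 named genes the number was also 5, so those not shown had no match in the stretch. In the 300-base promoter 8 of the 14 had a match.
Elf2 (chr3:51277515-51277594, minus strand): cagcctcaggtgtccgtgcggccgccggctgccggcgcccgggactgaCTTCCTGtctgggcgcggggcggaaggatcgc
Ikzf1 (chr11:11690084-11690163, plus strand): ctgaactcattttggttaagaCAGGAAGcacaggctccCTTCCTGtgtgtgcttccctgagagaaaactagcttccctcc
Il6ra (chr3:89913349-89913428, minus strand): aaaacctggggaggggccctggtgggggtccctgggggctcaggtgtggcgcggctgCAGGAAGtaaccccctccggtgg
Ifnar1 (chr16:91484971-91485050, plus strand): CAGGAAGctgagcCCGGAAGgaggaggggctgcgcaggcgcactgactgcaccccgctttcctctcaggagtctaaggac
Mpo (chr11:87793535-87793614, plus strand): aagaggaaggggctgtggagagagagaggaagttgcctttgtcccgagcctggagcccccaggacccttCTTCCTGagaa
In the other 4 it held none.
Lyl1 (chr8:84701349-84701428, plus strand): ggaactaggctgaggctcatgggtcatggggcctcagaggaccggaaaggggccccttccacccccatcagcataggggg
Gp9 (chr6:87777979-87778058, plus strand): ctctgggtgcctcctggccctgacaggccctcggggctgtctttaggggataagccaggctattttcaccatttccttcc
Prtn3 (chr10:79879573-79879652, plus strand): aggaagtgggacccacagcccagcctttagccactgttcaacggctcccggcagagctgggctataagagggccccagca
Tfrc (chr16:32608816-32608895, plus strand): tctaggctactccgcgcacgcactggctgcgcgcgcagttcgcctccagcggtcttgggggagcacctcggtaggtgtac
Lyl1 and Prtn3 had a match elsewhere in their 300-base promoter and Gp9 and Tfrc had none, so a shared peak did not require these letters in the window.

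Within the shared regions the Erg and Fli1 peaks lay almost on top of each other. The median distance between their midpoints was 21.0 bp (quartiles 10.0 and 39.0 bp), 83.9% of the members (7234) were within 50 bp, and 110 had both peaks at the same position. At the edge of the rule, 11 members overlapped by 50 bp or less, and 5 Erg peaks missed a Fli1 peak by less than 50 bp. The 392 Erg peaks without Fli1 were mostly far from one, at a median distance of 10655 bp, with 201 of them over 10 kb away.

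Promoters under shared peaks held the Erg and Fli1 letters far more often than other promoters. Of 21045 promoters, each 250 bases before to 50 bases after a start, 22.8% held CCGGAAG or CAGGAAG on either strand. The share was 65.0% (62.7 to 67.2%) of the 1790 promoters that had 150 bp or more under a shared peak, against 44.2% (42.0 to 46.5%) of 1874 promoters under a Fli1 peak without Erg. It was 21.4% of 1761 promoters under a Spi1 peak with neither Erg nor Fli1, and 15.2% of 13420 promoters under no peak of the 13 lists. Promoters under shared peaks and those under Fli1 peaks without Erg were alike in base composition, with a median G+C content of 61.3% and 60.7% and a median of 23 and 22 CpG. Among promoters with 20 CpG or more, the share with the motif was 67.6% under shared peaks, 43.1% under Fli1 peaks without Erg and 13.2% under no peak. Of the peaks near a listed start, 78.9% of shared peaks and 71.2% of Fli1 peaks without Erg lay within 250 bp of it. Whether the place of the peak in the promoter window adds to the difference was not tested.

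The form CCGGAAG made most of this difference, at 53.0% of promoters under shared peaks and 31.8% under Fli1 peaks without Erg, while CAGGAAG stood at 358 of 1790 and 301 of 1874 promoters. The full-length letters ACCGGAAGT were at 10.2% under shared peaks and 3.36% under Fli1 peaks without Erg, with 1.45% in all promoters. The same letters in reverse order (GAAGGCC or GAAGGAC) were at 12.2% (10.7 to 13.8%) and 11.6% (10.2 to 13.1%), somewhat above the 9.44% of all promoters. They have the same base composition but lack the CpG of CCGGAAG, so they are no control for CpG content. GAGGAAG, the PU.1-like form, was at 17.7% (16.0 to 19.6%) and 16.2%, against 25.1% in promoters under Spi1 peaks with neither Erg nor Fli1 and 13.3% of all promoters. Matches lay close to the peak midpoint. The nearest match in a promoter under a shared peak had a median distance of 23.5 bp to the Erg midpoint (quartiles 10.0 and 49.0 bp, over 1084 gene and peak pairs with a match) and 20 bp to the Fli1 midpoint. There were 8.76 matches per 1000 positions within 24 bp of the Erg midpoint, 1.49 at 100 to 124 bp and 0.575 at 200 to 224 bp. The promoters were read by their distance from the start and not from the peak, so matches beyond the window were not seen.

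**Figure D1:**
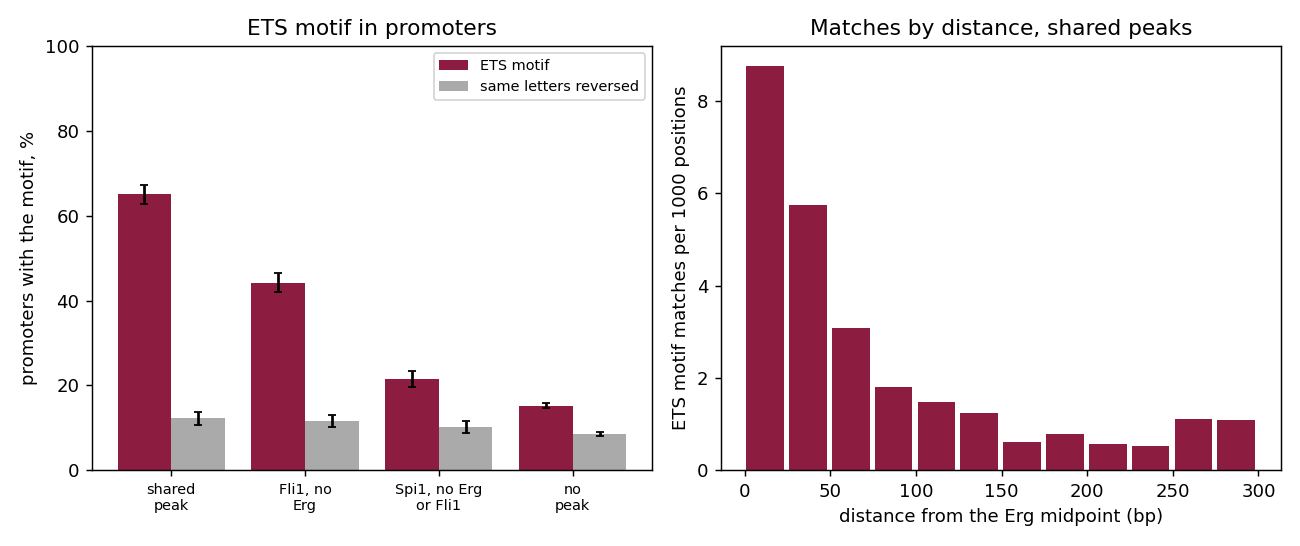
The left panel plots the percentage of promoters with CCGGAAG or CAGGAAG (red) and with the same letters reversed (grey) in 4 classes of promoter, with 95% binomial intervals as bars. The right panel plots ETS motif matches per 1000 promoter positions against distance in bp from the Erg midpoint. The motif was in 65.0% of promoters under shared peaks and 15.2% of those under no peak, and the density fell from 8.76 nearest the midpoint to under 1.3 beyond 125 bp.

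The letters searched for the factors outside the ETS family were less frequent in promoters under shared peaks than in all promoters. The Runx letters TGTGGT were in 12.5% of promoters under shared peaks and 14.7% of all promoters. Among promoters under shared peaks they were in 16.2% (13.9 to 18.7%) of those whose peak also held Runx1 and 8.58% (6.80 to 10.7%) of those whose peak did not. The GATA letters AGATAA (86 of 1790 promoters, against 9.68% of all promoters), the E boxes CAGCTG (13.7%) and CAGATG (9.05%), the C/EBP letters TTGCNNAA (7.93%), the Meis letters TGACAG (16.1%) and the Gfi letters AAATCA (6.98%) were each below their share of all promoters as well (15.7, 14.4, 10.3, 18.3 and 12.4%). All promoters differed in base composition, with a median G+C content of 56.7% and 13 CpG, against 61.3% and 23 under shared peaks. Promoters under Fli1 peaks without Erg had closer shares for all of these letters but TGACAG (18.4%). Their shares were 13.9% for TGTGGT, 6.88% for AGATAA, 13.7% for CAGCTG, 10.2% for CAGATG, 8.59% for TTGCNNAA and 7.47% for AAATCA. A match is not a bound site, and these values cover promoters only, since no genome sequence was used here for the peaks away from starts.

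Most shared regions were also occupied by several of the other 11 factors. A shared peak held a median of 6 others (quartiles 3 and 8) and a mean of 5.45 ± 2.73 (SD over 8622 peaks), against a median of 3 (quartiles 1 and 5) and a mean of 3.37 ± 2.34 at Fli1 peaks without Erg. Only 174 shared peaks (2.02%) had no other factor, against 802 (5.98%) of the Fli1 peaks without Erg and 45 (11.5%) of the Erg peaks without Fli1. Peaks with 9 to 11 others were 15.7% of the shared class and 2.96% of Fli1 peaks without Erg, and all 11 were present at 40 shared peaks and at 3 Fli1 peaks without Erg. A factor counted as present if its peak overlapped the Erg peak of a member or the Fli1 peak of a Fli1 region without Erg. Peaks have a fixed width, so the width searched was the same in both classes.

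Lmo2, the bridging protein of Tal1 and Lyl1 complexes, was the most frequent partner, at 83.8% of shared peaks (83.0 to 84.6%), against 56.1% of Fli1 peaks without Erg and 21.9% of all merged regions. Spi1 came next at 81.4% (80.5 to 82.2%), but it was nearly as frequent at Fli1 peaks without Erg (75.3%) and was in 62.6% of all merged regions. The related C/EBP factors of granulocytes and monocytes, Cebpb and Cebpa, were at 63.4% and 59.4% of shared peaks, against 42.8% and 40.9% without Erg and 30.9% and 28.7% of merged regions. Runx1, a regulator needed to form blood stem cells, was at 58.7% (57.6 to 59.7%), against 22.6% (21.9 to 23.3%) without Erg and 9.60% of merged regions. This ratio of 2.60 was the highest of the 11 factors, followed by 2.44 for Lyl1, which was at 51.2% of shared peaks, 20.9% of Fli1 peaks without Erg and 7.30% of merged regions.

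Tal1, the basic helix-loop-helix relative of Lyl1, was at 58.4% of shared peaks, 32.9% of Fli1 peaks without Erg and 14.1% of merged regions. The repressors Gfi1 and Gfi1b were at 34.2% and 25.7% of shared peaks, against 14.4% and 12.9% without Erg and 7.77% and 7.11% of merged regions. Meis1, the homeodomain partner of Hox proteins, was at 25.1%, against 16.5% without Erg and 11.3% of merged regions. Gata2, the GATA factor of stem cells and mast cells, was the rarest at 3.85% (3.45 to 4.28%), against 2.15% without Erg and 2.64% of merged regions. All 11 factors were thus more frequent at shared peaks than at Fli1 peaks without Erg, by ratios from 1.08 for Spi1 to 2.60 for Runx1. Erg peaks without Fli1 had lower shares than shared peaks for all 11 factors, with Runx1 at 29.8% and Lmo2 at 51.8%.

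**Figure D2:**
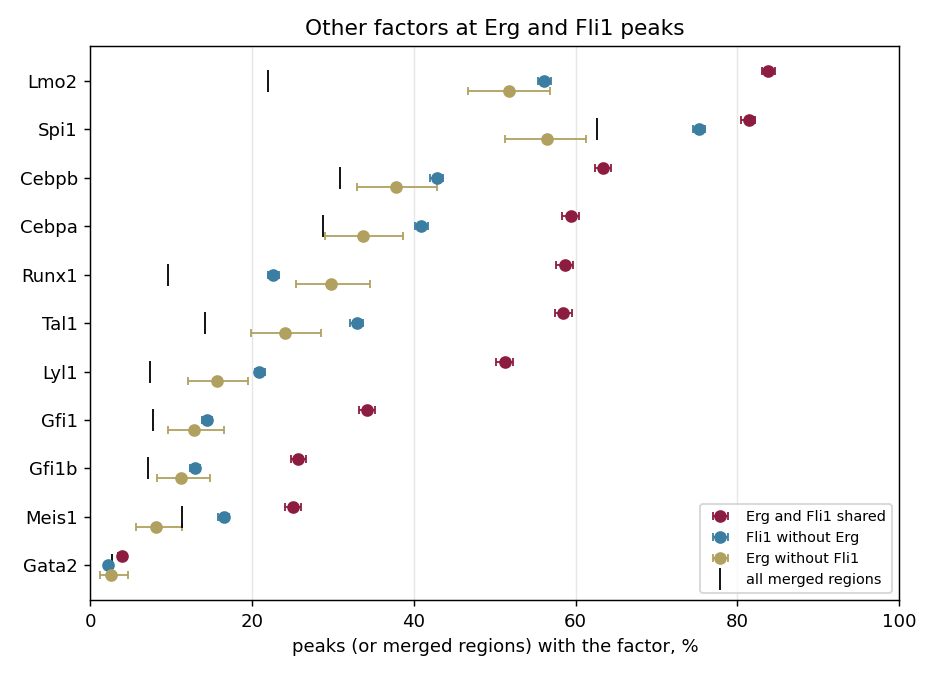
Each row is 1 of the other 11 factors and the axis is the percentage of peaks that overlap a peak of that factor, for shared Erg and Fli1 peaks (n = 8622), Fli1 peaks without Erg (n = 13412) and Erg peaks without Fli1 (n = 392), with 95% binomial intervals, and for all merged regions (vertical ticks). Shared peaks lie highest in every row, from 83.8% for Lmo2 to 3.85% for Gata2.

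How often a Fli1 peak had Erg differed along the lines of the Fli1 list, and this moved with the shares above. When the list was cut into 4 equal blocks, from the first lines to the last, 75.4%, 49.5%, 22.4% and 9.22% of Fli1 peaks overlapped Erg. What the order of the lines stands for is not stated. Within the blocks, 8 factors (Cebpa, Cebpb, Gfi1, Gfi1b, Lmo2, Lyl1, Runx1 and Tal1) were more frequent with Erg than without it in 4 of 4. Runx1 stood at 71.4% with Erg and 27.9% without in the first block, and at 35.6% and 16.8% in the fourth. In the fourth block Lmo2 was at 65.2% and 47.8%, Lyl1 at 18.5% and 14.1% and Gfi1 at 14.6% and 10.2%. The gaps of the rest were within counting error there. Cebpa was at 36.2% (32.0 to 40.6%) and 34.4%, and Cebpb at 38.8% (34.5 to 43.2%) and 36.6%. Tal1 was at 27.0% (23.2 to 31.1%) and 25.5%, and Gfi1b at 12.6% (9.84 to 15.8%) and 10.1%. Spi1 was slightly less frequent with Erg in each block, at 87.1% with and 88.4% without in the first, and at 64.0% and 69.2% in the fourth, so its higher share over the whole list did not hold within blocks. Meis1 was higher with Erg in 1 of 4 blocks and Gata2 in 2 of 4.

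Seen from the side of the other lists, the shared peaks covered 49.6% of all Lyl1 peaks and 43.1% of all Runx1 peaks. They covered 31.1% of Gfi1, 29.3% of Tal1, 27.0% of Lmo2 and 25.6% of Gfi1b peaks. The shares were 15.7% for Meis1, 14.6% for Cebpa, 14.5% for Cebpb, 10.3% for Gata2 and 9.19% for Spi1, whose own list is the longest. The partners also differed in how close they lay. Over the peaks of a factor that overlapped the Erg peak, the median distance from the Erg midpoint was 25 bp for Lyl1, 26 bp for Lmo2 and 27 bp for Tal1. It was 31 bp for Runx1 and 35 bp for Spi1. It was 40 bp for Gfi1, 44 and 45 bp for Cebpa and Cebpb, 47 bp for Gata2, 48 bp for Gfi1b and 52 bp for Meis1. From the Fli1 midpoint, Lyl1, Lmo2 and Tal1 were at 22, 24 and 26 bp at shared peaks and 29, 30 and 33 bp without Erg. Spi1 (32 and 27 bp) and Gata2 (35 and 32 bp) were closer without Erg, and the rest were farther.

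Tal1, Lyl1 and Lmo2 were all present at 48.3% of shared peaks, against 19.1% of Fli1 peaks without Erg. With Runx1 added the shares were 35.2% and 7.96%. The full heptad, with Gata2 as well, was at 142 shared peaks (1.65%) and at 39 Fli1 peaks without Erg that lacked only Erg (0.291%). Cebpa and Cebpb were together at 53.9% of shared peaks and 35.4% of Fli1 peaks without Erg, and Gfi1 and Gfi1b at 20.7% and 9.26%. The 8622 members held 577 different sets of other factors, of which 200 were seen once. The commonest set was every other factor except Gata2 (493 peaks, 5.72%), then Cebpa, Cebpb, Lmo2, Lyl1, Runx1, Spi1 and Tal1 (390 peaks, 4.52%), then Spi1 alone (332 peaks, 3.85%).

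More of the shared peaks lay at gene starts than of the Fli1 peaks without Erg. The midpoint of 2398 shared peaks, 27.8% (26.9 to 28.8%), was within 1 kb of the start of a protein-coding gene, against 21.0% (20.3 to 21.7%) of Fli1 peaks without Erg, 31.9% (27.3 to 36.8%) of Erg peaks without Fli1 and 13.8% of all peaks of the 13 lists. Where a gene had no listed start, its nearer boundary stood in for the start, here and below. With listed starts alone the shares were 23.4% (2015 shared peaks) and 17.1% of Fli1 peaks without Erg. Another 38.5% lay inside a gene farther from a start, and 33.7% lay outside genes, against 41.7% and 37.3% of Fli1 peaks without Erg. The median distance to a gene start was 11.3 kb for shared peaks, 14.2 kb for Fli1 peaks without Erg and 19.5 kb for all peaks, and 20.6% of shared peaks were over 50 kb away. Where the start is listed with its strand, 78.9% of the shared peaks near it were within 250 bp, against 71.2% of Fli1 peaks without Erg, and 57.8% of either lay upstream. Chromosome X held 78 shared peaks (0.905%), against 1.63% of Fli1 peaks without Erg.

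The company of Erg and Fli1 differed sharply between these places. Within 1 kb of a start, Tal1 was at 14.8% of shared peaks and Lyl1 at 13.8%, against 75.2% and 65.6% at shared peaks farther away. Meis1 stood at 5.50% near starts and 32.6% farther away, Gfi1 at 17.7% and 40.6%, and Gfi1b at 13.3% and 30.5%. Cebpa and Cebpb were at 38.9% and 43.3% near starts, against 67.3% and 71.1% farther away. Lmo2 (63.2% and 91.7%) and Spi1 (70.4% and 85.6%) differed in the same direction. Runx1 was nearly even, at 56.2% near starts and 59.6% farther away, and Gata2, at 5.09% (4.24 to 6.04%) and 3.37% (2.94 to 3.85%), was the only factor with a higher share near starts. At Fli1 peaks without Erg the shares also differed by place, with Tal1 at 7.53% near starts and 39.7% farther away, Lyl1 at 5.44% and 25.1%, Meis1 at 3.66% and 19.9% and Gata2 at 3.52% and 1.79%. Runx1 was at 30.6% near starts and 20.5% farther away there, and so higher near starts.

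**Figure D3:**
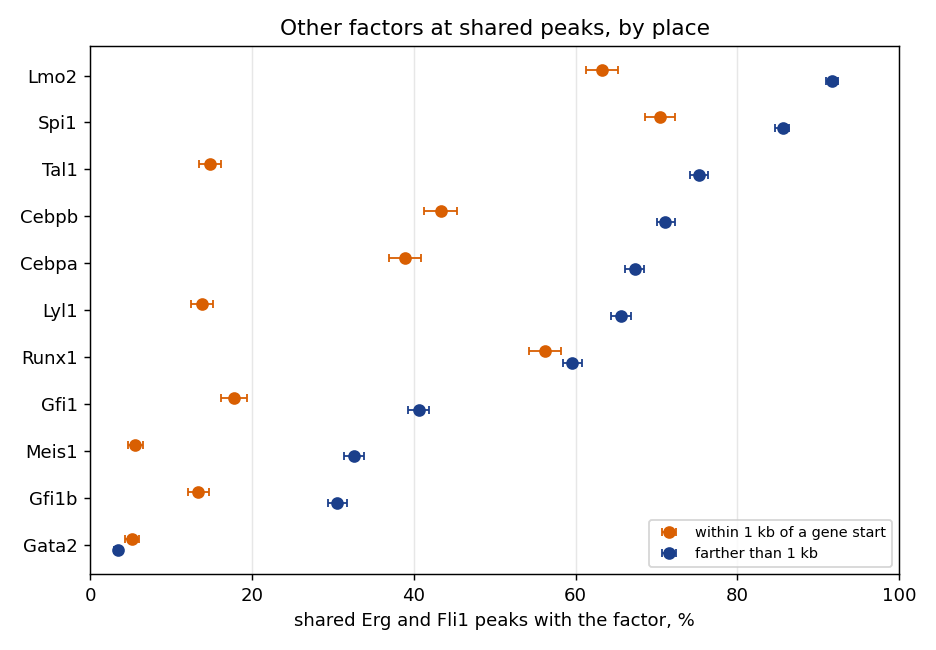
Each row is 1 of the other 11 factors and the axis is the percentage of shared Erg and Fli1 peaks that overlap it, for the 2398 peaks within 1 kb of a gene start (orange) and the 6224 farther away (blue), with 95% binomial intervals. Tal1, Lyl1 and Meis1 are far apart between the places, while Runx1 is at 56.2% and 59.6%.

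Shared peaks near starts held a median of 3 other factors and those farther away 7, against 2 and 3 for Fli1 peaks without Erg. The share of shared peaks near a start was 60.3% with no other factor, 63.4% with 1, 53.2% with 3, 25.7% with 5, 15.6% with 6 and 2.93% with 10. Tal1, Lyl1 and Lmo2 were all present at 11.2% of shared peaks near starts and 62.6% farther away. Peaks with neither Tal1 nor Lyl1 were 82.8% of shared peaks near starts and 22.6% of those farther away. Those that had Runx1 and neither Tal1 nor Lyl1 were 43.3% and 7.04%. As Runx1 itself was nearly even between the places, this is not a separate pattern of Runx1. The commonest sets near starts were Spi1 alone (194 peaks) and Lmo2, Runx1 and Spi1 (190 peaks), and farther away every factor but Gata2 (479 peaks).

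**Figure D4:**
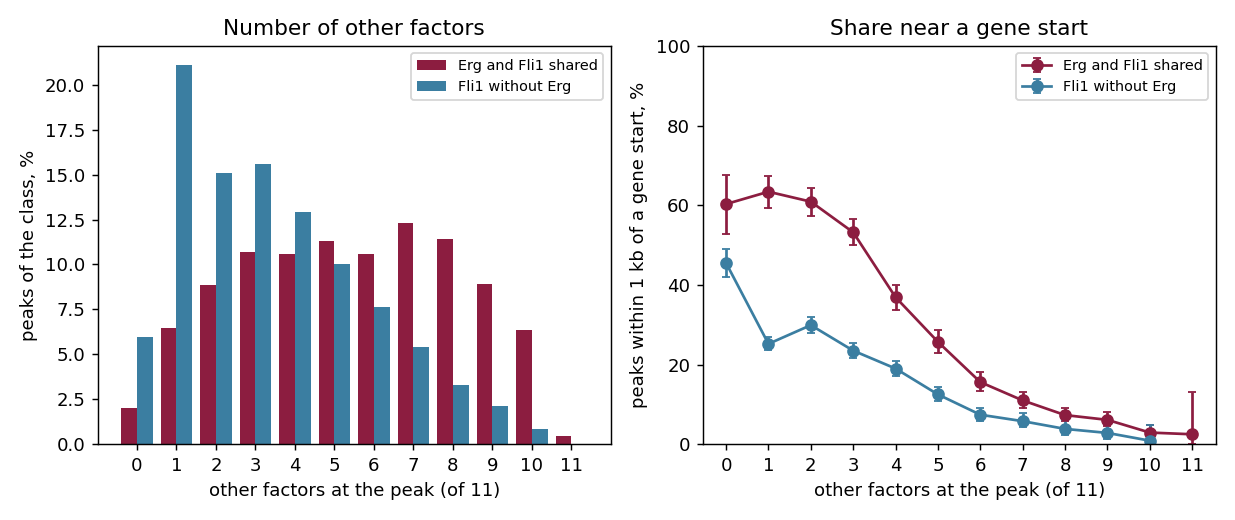
The left panel plots the percentage of shared Erg and Fli1 peaks and of Fli1 peaks without Erg (bars) by the number of other factors present, of 11. The right panel plots the percentage within 1 kb of a gene start against the same number, with 95% binomial intervals, for numbers with 20 peaks or more. Shared peaks are shifted to higher numbers, and their share near starts goes from 63.4% with 1 other factor to 2.93% with 10.

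The 40 shared peaks with all 11 other factors were taken in order of the distance between the Erg and Fli1 midpoints to name 5 of them (coordinates on mm10, counted from 1). The closest, chr1:172306230-172306629, had both midpoints at the same position and lay outside genes, 5.94 kb from the start of Igsf8. The next, chr6:52471564-52471963, lay outside genes, 158 kb from the start of Evx1. The third, chr16:36588003-36588402, lay inside a gene, with the start of Cd86, a costimulatory ligand of antigen-presenting cells, 19.2 kb away as the nearest. The fourth, chr16:52081827-52082226, lay inside a gene, 50.5 kb from the start of Cblb, a ubiquitin ligase that restrains lymphocyte signalling. The fifth, chr18:62719918-62720317, lay inside a gene, 21.3 kb from the nearer boundary of Spink13, as starts on chromosome 18 were not listed. All were more than 5 kb from the start or boundary used.

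Target genes were widespread. Of 21631 protein-coding genes, 50.6% (10937) had a shared peak in the gene or within 50 kb of it, called the locus here, and 12.5% (2706) had one within 1 kb of a start. A Fli1 peak without Erg was in 60.3% of loci. The shared peaks had 5554 different nearest genes, of which 3819 were nearest to just 1 and 160 to 5 or more. Counts in a locus depend on gene length and on neighbours, since one peak can lie in several loci.

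All 13 factor genes had a shared peak in the locus, with a median of 4 peaks against 1 over all genes. Runx1 had 8 shared peaks, Lyl1 and Fli1 7 each, Spi1 6 and Erg 5. Gata2 and Meis1 had 4 each, Gfi1, Tal1 and Lmo2 3, Gfi1b and Cebpa 2 and Cebpb 1. A peak in a locus can have another gene as its nearest. With no limit on distance, Lyl1 and Cebpa were the nearest gene of 1 shared peak each, Spi1 and Tal1 of 2 and Gfi1b of none. Gata2 and Gfi1 were the nearest of 3, Erg and Meis1 of 5, Lmo2 of 6, Fli1 and Cebpb of 7 and Runx1 of 15. All 13 also had a Fli1 peak without Erg, with 10 at Runx1, 9 at Fli1 and 8 at Erg. In 4 of the 13 a shared peak lay within 1 kb of a start (Lyl1, Spi1, Gfi1 and Tal1), against the 12.5% of all genes.

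At Erg itself, the 5 shared peaks were all inside the gene and between 9.85 and 55.7 kb from the nearest start. The one at chr16:95439157-95439556, 19992 bp from the start, held all 11 other factors, and the other 4 held 3 to 6. At Fli1, the 7 shared peaks held 1 to 8 others and none lay within 1 kb of a boundary. The richest was at chr9:32556308-32556707, outside the gene. The Runx1 gene had peaks at chr16:92800751-92801150 and chr16:92801575-92801974, inside the gene 25.1 and 24.3 kb from the nearest start, with 10 and 9 other factors. Both held Runx1 itself. At Lyl1 the peak 68 bp upstream of the start held 7 others, Lyl1 included and Lmo2 not, and another 1.37 kb upstream held 9.

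Spi1 had a peak 0.691 kb from its boundary with 9 others and another inside the gene, at chr2:91096454-91096853, with 10. Meis1 had a peak with all 11 others, 93.9 kb into the gene at chr11:18924858-18925257. At Cebpa the peak at chr7:35156483-35156882, 37.4 kb downstream of the start, held all 11, Cebpa and Cebpb included, and its nearest gene start was that of Slc7a10, 29.7 kb away. Tal1 had a peak 0.532 kb downstream of a start with 7 others, and Gfi1 one 0.349 kb upstream with 7. Peaks with 10 others were also found 23993 bp upstream of Gfi1 and 22.5 kb from Gfi1b. At Gata2 the peak at chr6:88203016-88203415, 4.55 kb downstream of a start, held 8 others, Gata2 among them, and it was the only one of its 4 shared peaks to hold Gata2.

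Lists of other blood genes ranged from 59.1% of loci with a shared peak (the ETS family) to all of them (B cell genes), against 50.6% of all genes. The granulocyte and monocyte, T cell, erythroid, endothelial and ETS family lists lay near that background, between 59.1% and 64.0%. All 20 B cell genes had one, against 19 with a Fli1 peak without Erg. They included Blnk, a B cell signalling adaptor, with 8 shared peaks, Dntt, the terminal transferase of lymphoid progenitors, with 5, and Ebf1, a B lineage regulator, with 4. The Blnk and Dntt loci overlap, and 1 of the 8 had Blnk as its nearest gene. Of 30 genes of leukocyte adhesion and signalling 29 had one (median 3.5 peaks), with 8 at Rac2, a GTPase of blood cells, and 7 each at Plcg2 and Lcp2, and 14 had one within 1 kb of a start. The number with one within 1 kb of a start was 7 of 22 cytokine and chemokine receptor genes, 5 of 25 on the list of stem and multipotent progenitors, 6 of 26 granulocyte and monocyte genes and 5 of 22 ETS family genes. It was 3 of 21 megakaryocyte and platelet genes, 3 of 25 endothelial genes, 2 of 20 B cell genes, 2 of 20 erythroid genes and 0 of 18 T cell genes, near or below the 12.5% of all genes. Of 22 cytokine and chemokine receptor genes 20 had one, 6 each at Il6ra and Ifnar1 and 5 at Flt3, whose ligand supports these cells. A Fli1 peak without Erg was in 19 of these 22 loci and in 28 of the 30 of leukocyte adhesion and signalling. The richest Flt3 peak, inside the gene at chr5:147366390-147366789, held every factor but Gata2.

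Of 25 stem and multipotent progenitor genes 18 had one, such as Etv6 with 6 and Ikzf1, which encodes Ikaros, with 5. Of 21 megakaryocyte and platelet genes 16 had one, with 8 at Zfpm1, the cofactor of GATA factors, 5 at Nfe2 and 4 at Gp9. Of 25 endothelial genes 16 had one, such as Esam (5), Sox18 (4) and Pecam1 (4), although no shared peak had Esam as its nearest gene, and Cdh5, Tie1 and Tek, other defining genes of the type, had none. Of 22 ETS family genes 13 had one, with Etv6, which is on this list too, at 6, Elk3 at 5 and Elf2 at 3. Granulocyte and monocyte genes had one in 16 of 26 loci, with 6 at Ncf1 and 5 each at Prtn3 and at Mpo, the myeloperoxidase gene, while 22 of the 26 had a Fli1 peak without Erg. The T cell list had one in 11 of 18 loci (Notch1 and Ptcra 2 each, Cd3d 1), a share of 61.1% (35.7 to 82.7%). The erythroid list had one in 12 of 20, a share of 60.0% (36.1 to 80.9%). Its richest genes were Zfpm1 (8) and Nfe2 (5), which are on this list too, and Tfrc (4). Both ranges include the 50.6% of all genes. With 10 kb either side the lists were at 4 of 18 and 4 of 20, against 29.7% of all genes at that distance. With so few genes, neither difference from all genes is read as a result.

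Housekeeping and ribosomal protein genes were above the 50.6% of all genes as well. So were their loci with a Fli1 peak without Erg, at 20 of 20 and 24 of 25, against 60.3% of all genes. A shared peak was in the locus of 18 of 20 housekeeping genes (Ywhaz and Tubb5 5, Actb 4, none of those of Tubb5 with it as the nearest gene) and 21 of 25 ribosomal protein genes (Rps15, Rplp0 and Rpl23 5 each). Of the ribosomal protein genes 13 had one within 1 kb of a start, a share of 52.0% against 12.5% of all genes, although no shared peak had Rplp0 or Rpl23 as its nearest gene. Mitochondrial respiratory chain genes had one in 16 of 26 loci (61.5%), with Ndufs7 at 5 and Atp5b at 3, and cell cycle and survival genes in 12 of 19 (63.2%), with Ccnd3 at 7, Cdkn1a at 6 and Cdk6 at 5. Both lists were nearer the share of all genes. The Ndufs7 and Rps15 loci overlap and share peaks. Ndufs7 was the nearest gene of 1 shared peak and Atp5b of none. Liver genes were the lowest, with 2 of 20 loci (Apoc3 and Hnf4a, 1 peak each, and none at G6pc), none at a start, while 12 of the 20 had a Fli1 peak without Erg, a share of 60.0% against 60.3% of all genes. Neuron genes were at 9 of 20, with none at a start. They included Eno2 with 5, none of which had Eno2 as the nearest gene, Camk2a with 3 and Grin1 with 2, none of which had Grin1 as the nearest gene.

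**Figure D5:**
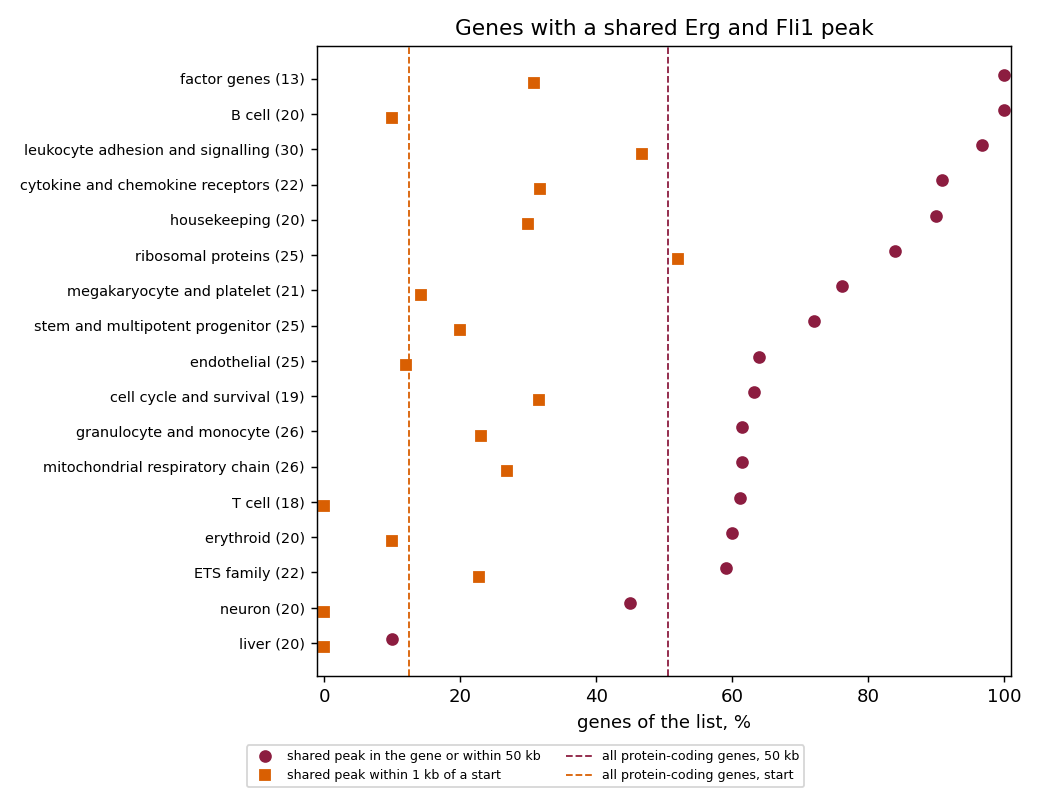
Each row is a list of genes, with its number of genes, and the axis is the percentage of its genes with a shared Erg and Fli1 peak in the gene or within 50 kb (circles) and within 1 kb of a start (squares). Dashed lines mark all protein-coding genes, at 50.6% and 12.5%. The factor genes and B cell genes are at 100%, and liver genes at 10.0%.

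By nearest gene, with no limit on distance, Runx1 had the most shared peaks (15). Dusp6, a phosphatase that restrains ERK signalling, and Pik3r1, a regulatory subunit of PI3-kinase, had 14 each, Septin9 12, Gse1 11 and Zfp608 10. Zfp36l2, an RNA-binding protein that promotes mRNA decay, had 9, and B3gnt2 and Id2, an inhibitor of E proteins, had 8 each. The locus of Id2 held just 1 shared peak. Dusp6 had 6 in its locus, of which the peak 0.123 kb upstream of the start held 8 other factors and the one 7.32 kb downstream held every factor but Gata2. Within the locus the highest count was 16 at Gse1, followed by 12 at Zmiz1 and 11 each at Hnrnpul1 and Septin9.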

How the data were processed

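Per the labels' protocols, cells were fixed for 10 min in formaldehyde at 0.4% or 1%, chromatin was sonicated for 7 min (30 s on, 30 s off), and factors were precipitated with specific antibodies. The submitters' processing notes name the tools Bowtie2, bedtools and MACS2 and the build mm10 (GRCm38). Nothing used here states versions, thresholds or whether IgG served in calling. The deposited lists give positions in bp in 3 columns, with no other measurement, 1 list per factor. Every peak is 400 bp wide, and depth is unknown. The 19 autosomes and X were used, which left out 3 mitochondrial lines.

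Overlaps of 1 bp or more, distances, shares and exact 95% intervals were computed with Python 3.11.15, pandas 2.3.3, numpy 2.4.6 and scipy 1.17.1, tested on simulated positions. RefSeq tables on GRCm38.p6 gave gene boundaries and, for 17274 of 21631 protein-coding genes, starts with strand. Other genes, chromosome 18 included, were measured from the nearer boundary. Loci were genes with 50 kb either side.

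The members and the 17 gene lists (372 entries, all found) were chosen with earlier results of these data known. Named were the factor genes, the 3 genes of each other list with the most shared peaks in the locus, the 10 nearest genes of the most shared peaks and the 5 shared peaks with the most other factors. Blocks of the Fli1 list, some sets of factors and the peaks described at single genes were chosen after values were seen, as were Zmiz1, Hnrnpul1, Cdh5, Tie1 and Tek. Some genes taken by the naming rule are left out of the text.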

Additional observations from a re-analysis of the deposited data

How the results depend on the processing

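No test was run, so no call could be lost. Requiring an overlap of 200 or 300 bp left 8561 or 8353 shared peaks, and the first 50% of the lines of every list gave 4201. The median number of other factors was 5 or 6 in each alternative. The share near a gene start was 24.5% within 500 bp, 38.9% within 5 kb, 32.2% with all genes of the table and 25.4% in the first 50% of the lines. With alternatives chosen after seeing the data it was 23.4% with listed starts alone and 26.3% with either boundary. The share of genes with a shared peak was 29.7% within 10 kb, 62.9% within 100 kb, 25.7% as nearest gene and 32.6% in the first 50% of the lines. Of promoters under shared peaks, 53.0% held CCGGAAG, 10.2% ACCGGAAGT and 93.3% GGAAG. Added after seeing the data, the reversed letters gave 12.2%, promoters with 250 bp or more under the peak 69.5% and 1 start per gene 64.8%. For these moves the cause was not tested beyond the window or letters named. Of the 11 factor shares, 10 moved in the first 50% of the lines, and Tal1 was the only one of them that was higher (62.3%). When a factor had to overlap by 200 bp, 8 moved, all lower, and 10 moved, all higher, when it could lie within 1 kb. Of the 17 gene lists, 9 fell at 10 kb and 3 rose at 100 kb by more than their counting interval. A narrower window can only lower these shares and a wider one only raise them, so the directions under these windows were fixed in advance. At 10 kb the T cell (4 of 18) and erythroid (4 of 20) lists were below the share of all genes, and above it at 50 kb. Their counting intervals at 50 kb include the share of all genes, so this change of side is not read as a result. No paired analysis was possible because each factor had 1 library and no test was made. Depth, which could set how many weak peaks each list holds, is unknown.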
